A study of Mus musculus with 4 samples.

Results

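Milk protein and milk fat genes were followed in sorted mouse mammary cells, 3 days after these were transplanted, as the 10 genes Csn1s1, Csn1s2a, Csn2, Csn3, Wap, Lalba, Btn1a1, Glycam1, Xdh and Plin2. A gene was measured through the probe sets that the platform annotation maps to its symbol alone, and its brightest probe set by the mean over all arrays gave its main value. In this way 9 of the 10 genes were measured, among 17097 genes in all, through 17 of 45141 probe sets. Xdh, xanthine dehydrogenase, was not analysed here.

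The arrays come from a study of collagen signalling, matrix stiffness and multipotency in mammary epithelium. In the BC alone group, mice received 10000 BC cells and nothing else, which the labels call multipotent. In the control group they received 2000 BC cells mixed with 8000 LC cells, called unipotent. The labels leave BC and LC unexplained, and mammary biologists mostly take them to stand for basal and luminal cells. Each group had 2 arrays, each made from the RNA of 50 cells sorted on day 3. No source used here gives genotype, strain, age, the gate of the sort or the number of animals. The arrays of a group may therefore differ for technical reasons alone, and p-values weigh only the spread between them, whatever its source. The number of BC cells and the presence of LC cells differ together and cannot be told apart, and it is not stated whether the sort kept LC cells in the control.

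Milk is made by the luminal cells that line the alveoli of the gland in late pregnancy and lactation. Prolactin, acting on its receptor and the kinase Jak2, activates the transcription factors Stat5a and Stat5b, which bind sites of the form TTCNNNGAA near casein genes and others. Caseins are the phosphoproteins that carry calcium in micelles, whey proteins stay in solution, and milk fat leaves the cell as droplets wrapped in membrane. Basal cells, the contractile myoepithelium, are not the normal site of this programme.

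Promoter sequences are shown for the members whose values differ most in pattern below. They were taken from RefSeq (GRCm38.p6), which supplied a window of 250 bases before to 50 bases after the start for 7 of the 10 genes, not for Csn3, Btn1a1 or Xdh. Capitals mark a match to TTCNNNGAA, a motif that reads the same on both strands. The motif occurred in 4 of the 7 windows, and in 8.3% of 32851 windows of that length over all genes. A match describes the letters and not a bound site. For Csn2, Csn1s1, Lalba and Glycam1 the 150 bases before the start are given, and for Csn1s2a 30 bases after it. They lie at chr5:87699426-87699575 on the minus strand (Csn2), chr5:87666058-87666207 on the plus strand (Csn1s1), chr5:87774460-87774489 on the plus strand (Csn1s2a), chr15:98482684-98482833 on the minus strand (Lalba) and chr15:103565082-103565231 on the minus strand (Glycam1).
Csn2: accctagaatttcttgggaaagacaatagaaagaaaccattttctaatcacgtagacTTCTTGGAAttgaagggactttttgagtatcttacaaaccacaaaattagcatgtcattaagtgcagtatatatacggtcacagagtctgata
Csn1s1: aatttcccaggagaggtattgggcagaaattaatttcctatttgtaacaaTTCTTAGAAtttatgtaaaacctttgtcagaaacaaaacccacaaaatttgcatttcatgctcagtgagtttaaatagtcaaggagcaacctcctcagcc
Csn1s2a: ttatagtgctTTCTTAGAAttacaatgact
Lalba: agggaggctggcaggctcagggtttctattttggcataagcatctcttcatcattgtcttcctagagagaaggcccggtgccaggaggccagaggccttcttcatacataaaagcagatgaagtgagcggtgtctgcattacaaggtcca
Glycam1: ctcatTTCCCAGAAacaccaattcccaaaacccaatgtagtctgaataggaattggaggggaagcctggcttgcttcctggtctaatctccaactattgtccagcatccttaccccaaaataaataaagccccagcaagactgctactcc

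Counted from the start, the matches ran from base -93 to -85 in Csn2, -100 to -92 in Csn1s1, 21 to 29 in Csn1s2a and -145 to -137 in Glycam1. Neither the Lalba, the Wap nor the Plin2 window held the motif.

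Values are the authors' log2 expression per probe set, and a difference of 1 is a 2-fold difference. Control replicate 2 stood apart from the other arrays. Its Pearson r with them over probe sets was 0.915 to 0.919, while the highest r of each other array was 0.970 to 0.972, and its values had an SD of 1.44 against 1.90 to 1.92. All 8 measured basal markers had a mean of 9.18 and 8.84 on the BC alone arrays, 9.29 on control replicate 1 and 5.93 on control replicate 2, where 7 of the 8 lay at least 1 log2 below every other array. Over all genes, 12.1% did so on that array. Each result on the milk genes is therefore also given without it where that turns or ends it. In such bulk samples, fewer cells of a type and less RNA per cell cannot be told apart.

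A group of milk genes was high on a single array, BC alone replicate 2. Btn1a1, Lalba, Csn1s2a and Csn2 each lay at least 1 log2 above all other arrays there, which 4 of the 9 measured members and 0.854% of all genes did. Their main probe sets exceeded the next highest array by 3.62, 3.11, 2.58 and 2.26 log2, or 12.3-, 8.63-, 5.98- and 4.79-fold. Ranked over all 17097 genes by this margin, Btn1a1 was number 1, Lalba 3, Csn1s2a 6 and Csn2 12. The pattern was noticed in these values and is a description of 1 array, with no test. The same 4 genes passed this margin after quantile normalization, median centring and cyclic loess, and without control replicate 2, and Csn1s1 joined them without control replicate 1. With the mean of all probe sets of a gene 2 did, Lalba and Csn1s2a.

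**Figure D1:**
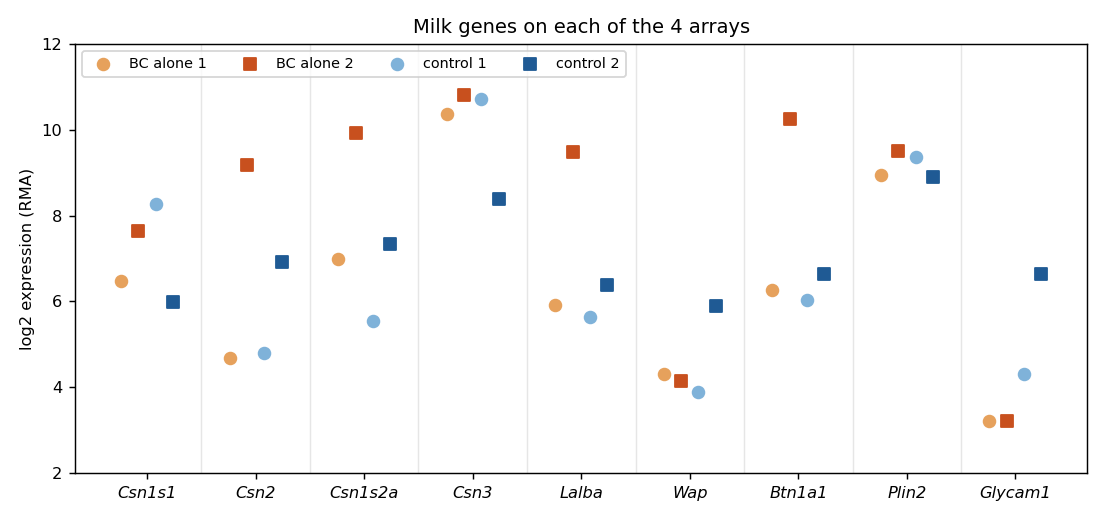
Log2 expression of the 9 measured milk genes (vertical axis) on each array, with BC alone in orange and control in blue; each point is the brightest probe set of the gene on 1 array. BC alone replicate 2 stands above the other arrays for Csn2, Csn1s2a, Lalba and Btn1a1, and control replicate 2 for Wap and Glycam1.

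Among the caseins, Csn2 encodes beta-casein, a major milk protein. Its main probe set had 4.67 and 9.18 on BC alone replicates 1 and 2, against 4.79 and 6.92 on control replicates 1 and 2. The BC alone arrays thus lay on either side of both controls, and control replicate 2 was itself 2.13 above control replicate 1. The difference between group means was 1.07 ± 1.53 (SE, limma, adjusted p = 0.846, n = 2 each). Without BC alone replicate 2 it was -1.185, and without control replicate 2 it was 2.13.

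Csn1s2a, a casein of the alpha-S2 type, had 6.99 and 9.92 on the BC alone arrays, against 5.54 and 7.34 on the controls. BC alone replicate 1 lay between the control arrays. Group means differed by 2.02 ± 1.08 (SE, limma, adjusted p = 0.842, n = 2 each), and by 0.55 without BC alone replicate 2. This gene kept a higher mean in BC alone in all 12 alternatives, at 0.55 to 3.48.

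Csn1s1, which encodes alpha-S1-casein, was not highest on that array. Its promoter window and that of Csn1s2a hold the same 9 letters of the motif, TTCTTAGAA. It had 6.48 and 7.65 on the BC alone arrays, against 8.27 and 5.99 on the controls. Its highest value was on control replicate 1 and its lowest on control replicate 2, and the groups overlapped. The difference was -0.07 ± 0.83 (SE, limma, adjusted p = 0.978, n = 2 each). Leaving out control replicate 1 gave 1.075, and leaving out control replicate 2 gave -1.205.

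Csn3, or kappa-casein, coats and stabilises the micelle. It had 10.36 and 10.81 on the BC alone arrays, against 10.71 and 8.38 on the controls, so that 3 arrays lay close together and control replicate 2 lay lower. Csn3 differed by 1.04 ± 0.77 (SE, limma, adjusted p = 0.842, n = 2 each), and by -0.125 without control replicate 2. Its low value there stood on the array with low basal markers, and the part of that array's other differences in it was not tested.

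The casein genes are neighbours on mouse chromosome 5, where the reference table places 8 protein-coding genes from Csn1s1 to Csn3. The order is Csn1s1, Csn2, Csn1s2a, Csn1s2b, Prr27, Odam, BC037156 and Csn3, of which 7 were measured. Csn2 and Csn1s2a, adjacent in this order, were the ones far above the other arrays on BC alone replicate 2. Csn1s2b, another alpha-S2-like casein, had 3.21 and 3.38 on the BC alone arrays, against 3.29 and 4.45 on the controls. Prr27 and Odam, which are not caseins, were at 2.69 to 3.53 in BC alone and 2.68 to 3.96 in the control, dimmer than the median probe set of each array, at 4.37 to 4.62. No detection calls were used, so such a low value is not called absent.

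Lalba and Wap are whey protein genes. Alpha-lactalbumin, the product of Lalba, turns the galactosyltransferase B4galt1 into lactose synthase. Lalba had 5.91 and 9.48 on the BC alone arrays, against 5.64 and 6.37 on the controls. BC alone replicate 1 lay between the controls, and replicate 2 lay 3.57 above replicate 1, or 11.9-fold. Group means differed by 1.69 ± 1.14 (SE, limma, adjusted p = 0.842, n = 2 each), and by -0.095 without BC alone replicate 2.

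Wap, whey acidic protein, ran otherwise. It had 4.30 and 4.14 on the BC alone arrays, against 3.89 and 5.89 on the controls, so its single high value was on control replicate 2. On the other 3 arrays Wap was dimmer than the median probe set, with no test against background. The difference was -0.67 ± 0.67 (SE, limma, adjusted p = 0.842, n = 2 each), and 0.33 without control replicate 2.

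Btn1a1 and Plin2 belong to milk fat secretion. Butyrophilin, the product of Btn1a1, is a membrane protein of the milk fat globule that binds the Xdh product, and Plin2 coats lipid droplets in many cell types. Btn1a1 had 6.26 and 10.25 on the BC alone arrays, against 6.04 and 6.63 on the controls. The 3.99 log2 between the BC alone arrays, 15.9-fold, was far wider than the 0.59 between the controls. Btn1a1 differed by 1.92 ± 1.25 (SE, limma, adjusted p = 0.842, n = 2 each), and by -0.075 without BC alone replicate 2.

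Plin2 was nearly level. It had 8.94 and 9.50 on the BC alone arrays, against 9.36 and 8.91 on the controls, and the groups overlapped. The difference of 0.085 ± 0.36 (SE, limma, adjusted p = 0.935, n = 2 each) turned to -0.62 after quantile normalization and -0.69 after cyclic loess, and to -0.14 without control replicate 2, so no direction is given.

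Glycam1 was the one measured member whose groups did not overlap. It encodes a mucin-like glycoprotein that is secreted into milk and is also made by high endothelial venules of lymph nodes, where it carries ligands of L-selectin. It had 3.21 on both BC alone arrays, against 4.31 and 6.64 in the control. The difference was -2.265 ± 0.76, a 4.81-fold lower value in BC alone (SE, limma, adjusted p = 0.842, unadjusted p = 0.027, n = 2 each). Leaving out control replicate 2 gave -1.10 and leaving out control replicate 1 gave -3.43, and it stayed negative in all 11 alternatives that kept the gene. Where limma's variance was allowed to follow intensity, the adjusted p was 8.9e-06, over a range of 8.9e-06 to 0.999 in these alternatives. In BC alone and on control replicate 1 it was dimmer than the median probe set, with no test against background.

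**Figure D2:**
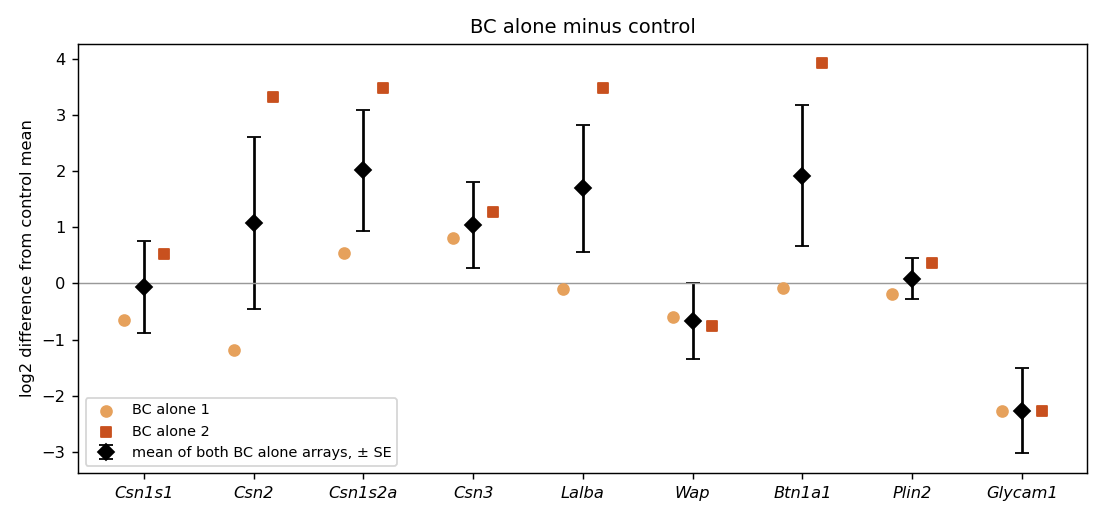
Log2 difference of each milk gene from the mean of the control arrays, for BC alone replicate 1 (circles), BC alone replicate 2 (squares) and their mean (diamonds, bars show the standard error of the limma fit). For Csn2, Lalba and Btn1a1 replicate 1 lies below 0 and replicate 2 above 3, while both lie at -2.265 for Glycam1.

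Across the comparison of BC alone with control, 0 of the 9 measured members passed an adjusted p of 0.05 in limma, as did 0% of all genes. At an unadjusted p under 0.05 there was 1 member, Glycam1, against 3.98% of all genes. With 2 arrays in each group, 0.333 is the smallest p that an exact permutation test allows. At least 2-fold lower without overlap was 1 member, where 0.895% of all genes were, and 0 members were at least 2-fold higher without overlap, where 4.79% were. Groups did not overlap for 1 of the 9 members and for 36.4% of all genes. Without control replicate 2, 3 members were at least 2-fold higher without overlap, Csn1s2a, Lalba and Btn1a1, and 2 were lower, Csn1s1 and Glycam1, where 2.19% and 2.09% of all genes were. Without BC alone replicate 1, 5 were higher, namely these 3 with Csn2 and Csn3, and 1 was lower, beside 7.17% and 1.31% of all genes. Without BC alone replicate 2, 0 were higher and 2 lower, Csn2 and Glycam1, beside 7.24% and 1.54% of all genes. Without control replicate 1, 2 were higher, Csn1s1 and Csn3, and 2 lower, Wap and Glycam1, beside 18.1% and 4.23% of all genes. A higher mean in BC alone was found for 6 of the 9 members and for 47.0% of all genes, and a lower one for 3 members. These member counts became 5 and 4 after quantile normalization or cyclic loess and 7 and 2 after median centring. The median difference of the members was 1.04, beside -0.04 over all genes and 0.375 over the genes at or above the median mean. It was 0.33 without control replicate 2 and -0.195 without BC alone replicate 2, and 0.33 after quantile normalization, 0.15 after cyclic loess and 0.19 with the mean of all probe sets of a gene. The spread inside the groups was wide, with a median absolute gap between the BC alone arrays of 1.17 for the members and 0.20 for all genes, and between the controls of 2.00 and 0.52.

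**Figure D3:**
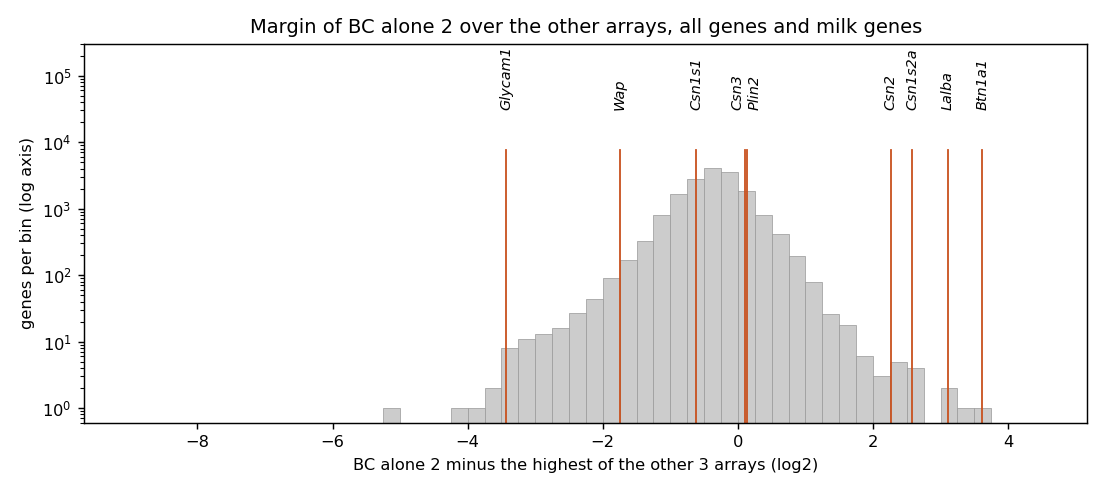
Number of genes (log axis) by the log2 margin of BC alone replicate 2 over the highest of the other 3 arrays, for all 17097 genes (grey bars of 0.25), with the milk genes as lines. Btn1a1 at 3.62, Lalba at 3.11, Csn1s2a at 2.58 and Csn2 at 2.26 lie at the right end, while Csn3, Plin2 and Csn1s1 lie near 0.

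Several members had more than 1 probe set, and these did not always run together. Csn1s2a had 4, of which the next brightest gave 4.78 and 8.52 on the BC alone arrays, against 4.49 and 5.68 on the controls. It too was highest on BC alone replicate 2, by 2.84. The other pair of Csn1s2a probe sets stayed between 2.49 and 2.86 on every array. For this gene the high array thus appeared on both probe sets that varied.

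The probe sets of Btn1a1 and Csn2 disagreed. A dimmer Btn1a1 probe set had 6.01 and 3.08 on the BC alone arrays, against 4.28 and 5.50 on the controls, and was lowest on the array where the main one was highest. The third had 2.92 and 2.88, against 2.99 and 4.81. For Csn2, a second probe set had 7.28 and 5.16 on the BC alone arrays, against 3.58 and 4.47 on the controls, which placed BC alone replicate 1 highest and both BC alone arrays above both controls, with a difference of 2.195. The remaining Csn2 probe set had 6.53 and 6.08, against 6.17 and 5.62. The high value of Btn1a1 and Csn2 on BC alone replicate 2 therefore rests on 1 probe set each. Lalba had a single probe set. For Csn3 the dimmer probe set stayed between 2.91 and 3.20.

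**Figure D4:**
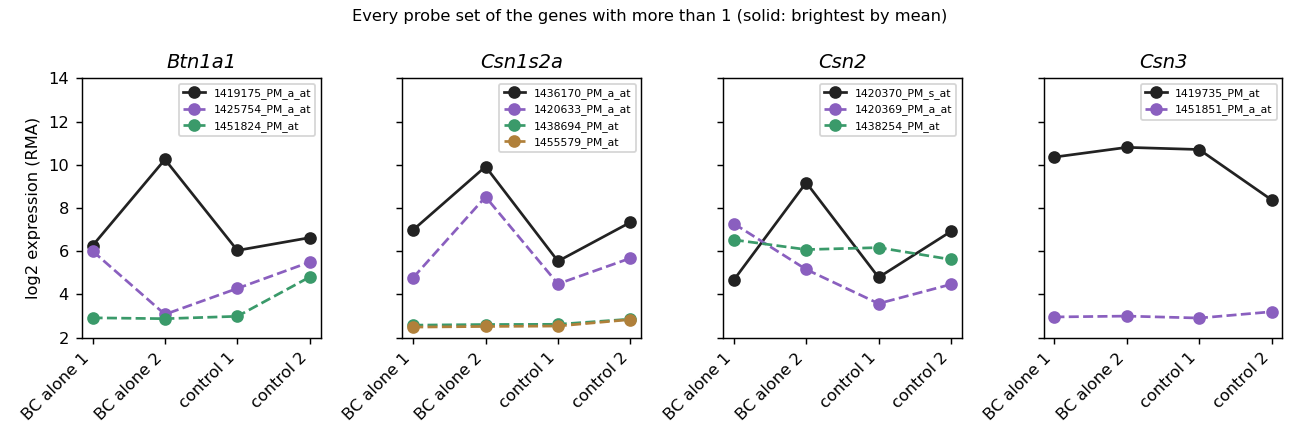
Log2 expression on the 4 arrays for every probe set of Btn1a1, Csn1s2a, Csn2 and Csn3, with the brightest by mean as a solid line and the others dashed. A peak on BC alone replicate 2 appears in 2 probe sets of Csn1s2a and in 1 each of Btn1a1 and Csn2.

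Csn2 had the widest range of the members, 4.51 log2 over the 4 arrays. By Euclidean distance of values centred on their mean over the 4 arrays, the 5 genes nearest to it among all genes were Dcpp3 at 1.28, Lalba at 1.34, Dpep1 at 1.38, Btn1a1 at 1.43 and Csn1s2a at 1.48. Among these 5, 3 were milk genes, which is likeness over 4 arrays and nothing more. Dcpp3 had 3.46 and 6.80 on the BC alone arrays, against 4.16 and 5.78 on the controls.

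Regulators of the milk genes were followed next. In the list of the prolactin pathway and secretory regulators, 11 of 12 genes were measured and 0 passed the adjusted test. At least 1 log2 above the other arrays on BC alone replicate 2 were 0 of these 11 and 0.854% of all genes. A count of 0 among 11 genes is near that share. Stat5a had 9.18 and 9.02 on the BC alone arrays, against 9.06 and 7.17 on the controls, and was low on control replicate 2. Elf5, a transcription factor of alveolar and luminal progenitor cells, had 4.19 and 6.90 on the BC alone arrays, against 6.01 and 5.37 on the controls. It was highest on BC alone replicate 2, by 0.89, and lowest on BC alone replicate 1. Jak2 had 7.10 and 6.74, against 6.29 and 5.88, and Socs2, a feedback inhibitor of cytokine signalling, 8.84 and 8.44, against 8.10 and 6.60. Prlr, the prolactin receptor, was not analysed here.

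Other secretory genes of the gland were divided as well. Of 11 measured genes in this list, 8 had a higher mean in BC alone and 3 a lower one, and 0 passed the adjusted test. Over all genes 47.0% had a higher mean in BC alone. Wfdc18, a whey acidic protein family member, had 9.41 and 10.20 on the BC alone arrays, against 8.47 and 8.23 on the controls. Saa3, an acute phase protein, had 6.92 and 6.55, against 5.99 and 4.34. Ltf, the iron-binding lactoferrin, had 7.32 and 7.47, against 7.86 and 9.56, and Pigr, which carries antibodies across epithelium, had 4.63 and 4.75, against 4.80 and 7.58. Ltf, Pigr and Csn1s2b were at least 1 log2 above all other arrays on control replicate 2, as Wap and Glycam1 were, and as 2.29% of all genes were.

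Genes for making fat and lactose were followed as well. Of 18 fat synthesis and uptake genes 12 had a higher mean in BC alone, and of 7 lactose genes 6 did. Over all genes 47.0% did. In either list 0 passed the adjusted test. At least 1 log2 above the other arrays on BC alone replicate 2 were 0 in either list and 0.854% of all genes, so 0 is near that share. Fasn, fatty acid synthase, had 7.78 and 7.59 on the BC alone arrays, against 7.58 and 7.14 on the controls. Scd1, a fatty acid desaturase, had 9.27 and 9.34, against 8.49 and 6.94. Lpl, lipoprotein lipase, had 6.93 and 7.57, against 6.64 and 5.68, Plin3, a relative of Plin2, had 6.06 and 6.60, against 5.49 and 5.87, and Thrsp had 4.13 and 5.29, against 5.44 and 6.18. B4galt1, the partner of Lalba, had 9.11 and 9.38 on the BC alone arrays, against 8.60 and 7.78 on the controls. The glucose transporter gene Slc2a1 had 10.47 and 10.19, against 10.15 and 8.32. Ugp2 and Slc35a2, which make and move the sugar donor, had 6.56 and 6.03 against 5.75 and 4.88, and 6.67 and 6.96 against 6.52 and 6.41. For the fat and lactose genes named here, except Plin3, most of the gap to the controls came from control replicate 2.

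Markers of luminal cells were compared on the same arrays, since milk genes belong to that lineage. Of 13 measured markers, 3 lay at least 1 log2 above all other arrays on BC alone replicate 2, namely Aldh1a3, Kit and Esr1. Over all genes 0.854% did so. Foxa1 and Cldn3 were instead lowest on that array, Foxa1 with 5.42 and 4.21, against 4.79 and 7.36, and Cldn3 with 7.74 and 6.30, against 8.23 and 7.20. Cd14 was highest on control replicate 1, with 6.35 and 6.66, against 8.56 and 6.40. Aldh1a3, a luminal progenitor enzyme, had 6.38 and 9.02 on the BC alone arrays, against 7.05 and 6.57 on the controls, and Kit, a receptor of luminal progenitors, had 4.06 and 6.29, against 4.90 and 4.32. Esr1, the estrogen receptor, had 8.13 and 9.19, against 6.48 and 6.72. The mean of the luminal list was 7.31 and 7.40 on the BC alone arrays, against 7.30 and 6.66 on the controls, and Krt8 had 10.42 and 10.30, against 10.16 and 8.0. Gata3 had 6.52 and 6.85, against 5.70 and 5.05, and Prom1 was high on BC alone replicate 1, with 8.26 and 6.40 against 6.07 and 6.07. The part of luminal cells in the milk gene values was not tested.

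**Figure D5:**
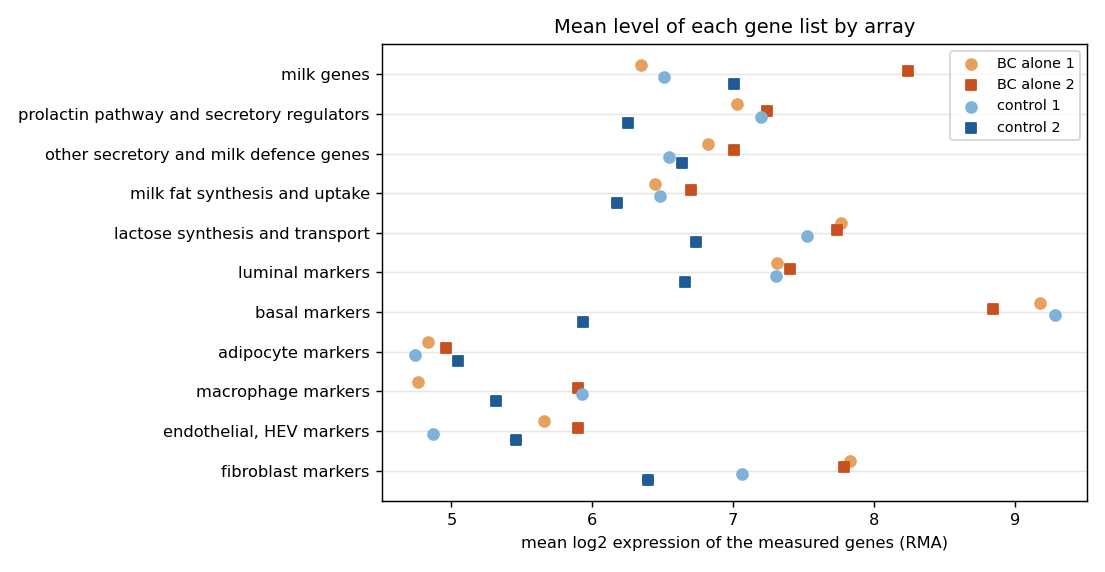
Mean log2 expression of the measured genes of each list (horizontal axis) on each array, BC alone in orange and control in blue. The milk genes have their highest mean on BC alone replicate 2, at 8.24 against 6.35 to 7.01 elsewhere, while the basal list drops to 5.93 on control replicate 2.

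Markers of other cell types, some of which make these proteins, were also followed. At least 1 log2 above all other arrays were 0 of them on BC alone replicate 2 and 0 on control replicate 2. Over all genes 0.854% and 2.29% were, so such counts of 0 in short lists are near those shares. Adipocytes also make Plin2, and of their 5 measured markers the mean was 4.83 and 4.96 on the BC alone arrays, against 4.74 and 5.05 on the controls, with Adipoq at 2.94 and 3.58, against 2.97 and 3.41. Fabp4 had 9.03 and 9.0, against 8.11 and 8.27, and Retn had 4.50 and 4.77, against 5.11 and 5.50. The 7 macrophage markers averaged 4.77 and 5.90, against 5.93 and 5.31, with Lyz2 at 6.12 and 6.93, against 7.46 and 7.70. C1qa and C1qb, complement genes of macrophages, were highest on BC alone replicate 2, but no other marker of the 7 was. C1qa had 4.57 and 7.07 on the BC alone arrays, against 6.34 and 5.08 on the controls, and C1qb had 4.63 and 7.26, against 6.76 and 4.91. Csf1r was lowest on that array, with 5.12 and 4.86, against 5.35 and 5.31. Cd68 and Ptprc were highest on control replicate 1, and Adgre1, like Lyz2, on control replicate 2. High endothelial venules also make Glycam1. The 10 endothelial and venule markers averaged 5.66 and 5.90, against 4.87 and 5.46. Tek had 5.77 and 5.46, against 3.67 and 3.92, and Cdh5 had 8.38 and 8.05, against 7.48 and 6.25. Emcn had 5.84 and 6.64, against 4.81 and 5.04. Tek, Cdh5 and Emcn were thus higher on both BC alone arrays than on both controls, where Glycam1 was lower. The groups overlapped for Pecam1, with 7.63 and 6.82, against 7.17 and 7.14, and for Kdr, with 5.28 and 6.28, against 5.78 and 5.35. Of the 10 markers, 4 were higher without overlap and 0 lower, while groups did not overlap for 36.4% of all genes. Selp had 8.30 and 8.42, against 4.95 and 8.25, and Sele had 3.98 and 6.02, against 3.69 and 5.93. Both were higher on control replicate 2 than on control replicate 1, as Glycam1 was. They were as high on BC alone replicate 2, where Glycam1 was not. The venule genes Fut7, Madcam1 and Chst4 had their highest values on control replicate 2, at 5.28, 4.26 and 3.15, against 4.57 to 4.70, 3.68 to 3.81 and 2.88 to 2.91 elsewhere. The dimmer Csn3 probe set was also highest on that array, at 3.20 against 2.91 to 3.00. The median probe set of that array was the brightest too, at 4.62 against 4.37 to 4.38. Madcam1 and Chst4 lay below the median probe set of every array, and Fut7 lay above it. The part of this in the venule values was not tested. The part of these cell types in the milk gene values was not tested. The 8 fibroblast markers averaged 7.83 and 7.79, against 7.06 and 6.39, with Thy1 at 8.65 and 8.39, against 6.57 and 5.92. RMA values hold no zeros, so no marker is listed at 0.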

How the data were processed

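Each array's deposited column holds log2 values, 1 per probe set, which the authors computed by RMA in the affy package, as the submitters' processing notes name without a version. RMA removes background, equalises quantiles and combines the probes of each set, yet the 4 columns do not share 1 distribution. Of 45141 probe sets the old platform annotation tied 28898 to 1 symbol, 551 to several and 15692 to none. The reference gene table held 28689 of them by Entrez identifier, with 0 symbols updated.

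Groups were compared in limma 3.58.1 under R 4.3.3 (lmFit and eBayes, 1 probe set per gene, two-sided, Benjamini-Hochberg over 17097 genes, threshold 0.05), tested on simulated data. The fit had 2 residual and 3.50 prior degrees of freedom. Folds are powers of 2 of log2 differences, and RMA can make large ones too small. Replicate numbers are in the titles, and it is not known whether they pair the arrays. Same-numbered arrays deviated from their group means with a correlation of -0.02 over genes. With 2 arrays in each group, 1 such value cannot decide this.

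The members and gene lists were chosen with earlier results of these data known. Named were all members, up to 4 genes of each other list with the largest difference among those without overlap, Prlr, Stat5a, Elf5 and Fasn, and the 5 genes nearest to the member of widest range. Of the basal and fibroblast lists only Thy1 is shown. Aldh1a3, Kit, Csn1s2b, Prr27, Odam, Adipoq, C1qa, C1qb, Sele, Fut7, Chst4, Madcam1 and the genes of the closing section were named after their values were seen. So were Foxa1, Cldn3, Cd14, Cd68, Adgre1, Ptprc, Pecam1 and Kdr. Alternatives were other scalings, variance models, probe set rules, a filter on dim genes, the replicate block and leaving out each array. Sequences are RefSeq windows of GRCm38.p6, and no coordinates are given for probe sets.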

Additional observations from a re-analysis of the deposited data

How the results depend on the processing

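Genes past the adjusted test numbered 0 in the main analysis, 97 with an intensity trend in limma, Glycam1 among them, and 108 with the replicate block, which leaves 1 residual degree of freedom. The block called Csn1s2a (adjusted p = 0.022), Btn1a1 (adjusted p = 0.035) and Glycam1 (adjusted p = 0.0058), and the replicate numbers are not known to pair the arrays. No alternative of the others called a member. Genes at least 2-fold apart without overlap numbered 972, of which 84.3% were higher in BC alone, against 614 (54.4%) after quantile normalization, 533 (56.5%) after cyclic loess, 1243 (92.0%) after median centring and 620 with the mean of probe sets, and 732 to 3824 without 1 array. Under median centring, differences over all genes shifted by 0.125 at their median. In the main analysis 4.79% of all genes were at least 2-fold higher without overlap and 0.895% lower. With the mean of probe sets these shares were 2.95% and 0.673%, and without the dimmer genes 8.9% and 1.08%. Members at least 2-fold apart without overlap numbered 1, but 2 with the mean of probe sets, 0 among the 7 members left without the dimmer genes, which drops Glycam1 and Wap, and 2 to 6 without 1 array. Members with a higher mean in BC alone numbered 2 to 7 without 1 array. Members at least 1 log2 above all other arrays on BC alone replicate 2, a count chosen after seeing the data, numbered 4. They numbered 2 with the mean of probe sets and 4 to 5 without 1 array. The share of all genes was 0.854%, 0.597% with the mean of probe sets and 1.21% to 2.26% without 1 array. The difference of Csn1s1 turned to 0.06 after median centring, and that of Plin2 to -0.62 and -0.69 after quantile normalization and cyclic loess. Without 1 array the differences ran from -1.205 to 1.075 for Csn1s1, -1.185 to 3.325 for Csn2, -0.125 to 2.205 for Csn3, -1.67 to 0.33 for Wap, -0.095 to 3.475 for Lalba, -0.075 to 3.915 for Btn1a1 and -0.195 to 0.365 for Plin2. Beyond fewer arrays or genes, the cause was not tested. With 1 array left in a group, that array is assumed to vary like the other group. Dim values have no test against background, which limits Wap, Glycam1 and the dimmer probe sets.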

Other observations

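Other genes that shared the margin of the milk genes on BC alone replicate 2 were looked up after the values were seen. Among the 8 genes with the widest margin over all other arrays, 3 were milk genes, and the other 5 were Saa1, Mal2, Itgbl1, Ctsk and Il33. Saa1, an acute phase apolipoprotein, had 4.76 and 8.23 on the BC alone arrays, against 4.48 and 4.72 on the controls. Mal2, a protein of apical transport in epithelial cells, had 4.67 and 8.12, against 5.04 and 5.09. Il33, an alarmin cytokine, had 4.14 and 8.0, against 5.47 and 4.62, and Ctsk, the protease cathepsin K, had 5.27 and 7.96, against 4.31 and 5.39. Itgbl1 had 4.48 and 7.19, against 3.70 and 4.10. In each of these 5 genes BC alone replicate 2 was the one high array.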
